A study of Mus musculus with 9 samples.

Results

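The nuclear-encoded genes of the mitochondrial respiratory chain and the ATP synthase were described across thymocytes that met, or did not meet, a self-antigen during selection. Members were chosen by symbol, as genes whose names start with Nduf, Uqcr, Cox4 to Cox8 or Atp5, together with Sdha, Sdhb, Sdhc and Sdhd, leaving out names that end in -ps. The rule found 94 genes of 24594 in the table and left out 1 pseudogene, Ndufs5-ps. They comprise 37 subunits of complex I, 8 complex I assembly factors, 4 subunits of complex II, 8 of complex III, 20 of complex IV and 17 of complex V. Symbols can mislead, since Ndufb4c, counted here with complex I, is annotated in GENCODE as a processed pseudogene. Ndufa4 and Ndufa4l2 carry complex I names but were counted with complex IV, where Ndufa4 is known to reside. Cyc1, the cytochrome c1 subunit of complex III, has a symbol outside the rule and was not a member.

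RNA was sequenced from 9 libraries of thymic CD4+ CD8- CD69+ Vα2+ Vβ5+ cells, which are semimature CD4 single-positive (SP4) thymocytes that carry the OT-II transgenic T cell receptor for an ovalbumin peptide. The cells developed for 4.7 weeks in lethally irradiated hosts that had received a mix of OT-II marrow, OT-II marrow labelled Nr4a1-/- Nr4a3-/- (double knockout, DKO) and non-transgenic wild-type marrow. Hosts were wild-type BoyJ mice (WT hosts), which model positive selection, or F1 offspring of BoyJ and a C57BL/6 WehiJ line that carries the transgene Tg(Ins2-TFRC/OVA)296Wehi (RIPmOVA hosts). In the latter, the rat insulin promoter drives membrane ovalbumin, which models negative selection. With hosts labelled so, self-antigen and host strain cannot be told apart. The study's methods instead describe both host types as F1 offspring of a RIPmOVA and BoyJ cross. The groups were OT-II cells of WT hosts (n = 2 libraries), OT-II cells of RIPmOVA hosts (n = 2), DKO-labelled OT-II cells of WT hosts (n = 3) and DKO-labelled OT-II cells of RIPmOVA hosts (n = 2). The OT-II control donors were Nr4a1+/+ Nr4a3+/+ F1 mice of B6.Cg-Tg(TcraTcrb)425Cbn/J and BoyJ, whereas the DKO-labelled donors were C57BL/6, so genotype and donor background cannot be told apart. OT-II and DKO-labelled libraries with the same number and host type came from the same chimera.

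The respiratory chain passes electrons from NADH through complex I, or from succinate through complex II, to ubiquinone, then through complex III and cytochrome c to complex IV, which reduces oxygen. Complexes I, III and IV pump protons across the inner mitochondrial membrane, and complex V, the ATP synthase, uses the return flow of protons to make ATP. Most subunits are encoded in the nucleus and imported, and a small core set is encoded by mitochondrial DNA. Thymocytes carry out oxidative phosphorylation, and mitochondria are also where the intrinsic pathway of apoptosis releases cytochrome c.

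Library depth, recovered from the RPKM steps, was about 15521200 to 25053700 reads, and the members took 1.02 to 1.19% of the reads of a library. The T cell label was checked against markers, with 7 T cell genes summing to 1637 to 2006 RPKM. Sums were 2.68 to 10.4 RPKM for 4 B cell, 1.82 to 20.8 for 5 myeloid and 0.964 to 25.09 for 4 erythroid genes. The myeloid sums differed by group. In RIPmOVA hosts they were 10.04 to 20.8 RPKM in OT-II and 4.154 to 5.714 in DKO-labelled libraries. In WT hosts they were 2.949 to 9.825 and 1.82 to 4.355. For stage, 3 semimature single-positive genes summed to 507.9 to 619 RPKM and 6 CD4+ CD8+ thymocyte genes to 77.78 to 122.2. These sums do not give the share of each stage. In RIPmOVA hosts, 6 thymic epithelium genes summed to 8.194 to 11.99 RPKM in DKO-labelled and 5 to 7.176 in OT-II libraries. In WT hosts the sums were 2.73 to 4.515 and 3.433 to 5.516. The genotype label could not be checked from this table. Nr4a1 was at 60.1 to 87.7 RPKM in the 3 DKO-labelled libraries of WT hosts and 60.7 to 86.1 in the OT-II libraries, and a sum over whole-gene exons need not fall when part of a gene is deleted. Nr4a3 was at 14.1 and 16.5 RPKM in the DKO-labelled libraries of RIPmOVA hosts against 3.72 and 5.66 in the OT-II libraries, so directions below are between libraries labelled DKO and OT-II. Reads on sensory receptor genes (Olfr and Vmn symbols), which thymocytes are not known to use, differed between libraries. In RPM (reads scaled to library depth alone, the unit behind RPKM before division by length), they summed to 1129 and 511 in OT-II libraries of WT hosts, 549 and 293 in those of RIPmOVA hosts, 503, 1039 and 413 in DKO-labelled libraries of WT hosts and 1035 and 1474 in those of RIPmOVA hosts. The 2 DKO-labelled libraries of RIPmOVA hosts were thus above both OT-II libraries of RIPmOVA hosts.

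Respiratory chain transcripts were abundant in each library. Of the 94 members, 91 reached an RPKM (reads scaled to exon length in kilobases and to library depth) of 1 in at least 2 libraries and were tested. The other 3 were Cox6a2, Cox8b and Ndufa4l2. Over the tested members, the median of the mean RPKM was 35.0 for complex I, 77.0 for complex II and 54.4 for complex III. It was 45.8 for complex IV and 47.5 for complex V. For complex IV this covers 17 of 20 genes. Among them are Cox4i2, Cox6b2, Cox7a1, Cox7b2 and Cox8c, at 0.815 to 1.52 RPKM, which lower its median. The complex I assembly factors, which build the complex but are not part of it, were lower, with a median of 7.34 RPKM and a range of 3.71 (Ndufaf2) to 15.1 (Ndufaf8). By mean RPKM over the 9 libraries the highest members of the 5 complexes were, in falling order, Ndufa1 (194), an accessory subunit of complex I, Atp5b (151), the catalytic beta subunit of the ATP synthase, Cox6a1 (147), a complex IV subunit, Uqcrb (115), a small subunit of complex III, and Sdhd (102), a membrane anchor of complex II. At the low end, outside the tissue-restricted isoforms, lay Ndufb2 at 9.62 RPKM and Atp5g1 at 11.1 RPKM.

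The order of the members by RPKM depended on the length the reads were divided by. The deposited exon lengths had a median of 2464 bases over the members, against 782 bases for the principal GENCODE transcript. They equalled the joined exons of the GENCODE M21 gene for only 13 members, so how they were derived is not known here. The deposited length was more than 2 times the principal length for 60 members and more than 5 times for 10. Rescaled to the principal transcript, an alternative chosen after the data were seen, Atp5b led with 545 RPKM, and Ndufa1, whose deposited length of 419 bases equals its principal transcript, moved from rank 1 to rank 19. Cox4i1, the subunit IV isoform of most tissues, moved from rank 14 (88.4 RPKM) to rank 4 (311 RPKM). The medians by complex on that scale were 88.5 RPKM for complex I, 130 for complex II, 164 for complex III, 157 for complex IV and 172 for complex V, with 18.1 for the assembly factors. Levels between genes therefore depend on the length used, while comparisons of 1 gene between libraries do not. Exons of 33 members overlapped another gene, on the opposite strand for 30 of them, and the use of strand in counting is not given in the sources used here. Near-identical copies are a further limit: Ndufb4c, at 24.0 RPKM, is named as a copy of Ndufb4, at 35.0 RPKM, and the excluded Ndufs5-ps was at 19.6 to 24.9 RPKM where Ndufs5 averaged 20.4, so reads of these pairs may be split.

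The summed level of the members varied little between libraries. It was 4628 and 4662 RPKM in OT-II libraries of WT hosts and 4907 and 4368 in those of RIPmOVA hosts. In the DKO-labelled libraries it was 4899, 4238 and 5043 RPKM in WT hosts and 4345 and 4336 in RIPmOVA hosts. The highest library was thus 1.19 times the lowest, and both of these were DKO-labelled libraries of WT hosts. Complex I summed to 1855 ± 37.3 RPKM (SD, n = 2) in OT-II cells of WT hosts, 1828 ± 151 (n = 2) in OT-II cells of RIPmOVA hosts, 1901 ± 188 (n = 3) in DKO-labelled cells of WT hosts and 1691 ± 14.5 (n = 2) in DKO-labelled cells of RIPmOVA hosts. Complex V summed to 1061 ± 18.4, 1059 ± 75.3, 1078 ± 80.9 and 1021 ± 19.0 RPKM in the same groups. For complex V, the DKO-labelled libraries of RIPmOVA hosts, at 1035 and 1008 RPKM, lay below the OT-II libraries of WT hosts, at 1074 and 1048. The other pairs of groups overlapped. For complex I, the 2 DKO-labelled libraries of RIPmOVA hosts, at 1680 and 1701 RPKM, lay below both OT-II libraries of RIPmOVA hosts, at 1934 and 1722, but 1 DKO-labelled library of WT hosts was at 1685. In bulk samples, fewer cells of a type and less RNA per cell cannot be told apart.

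**Figure D1:**
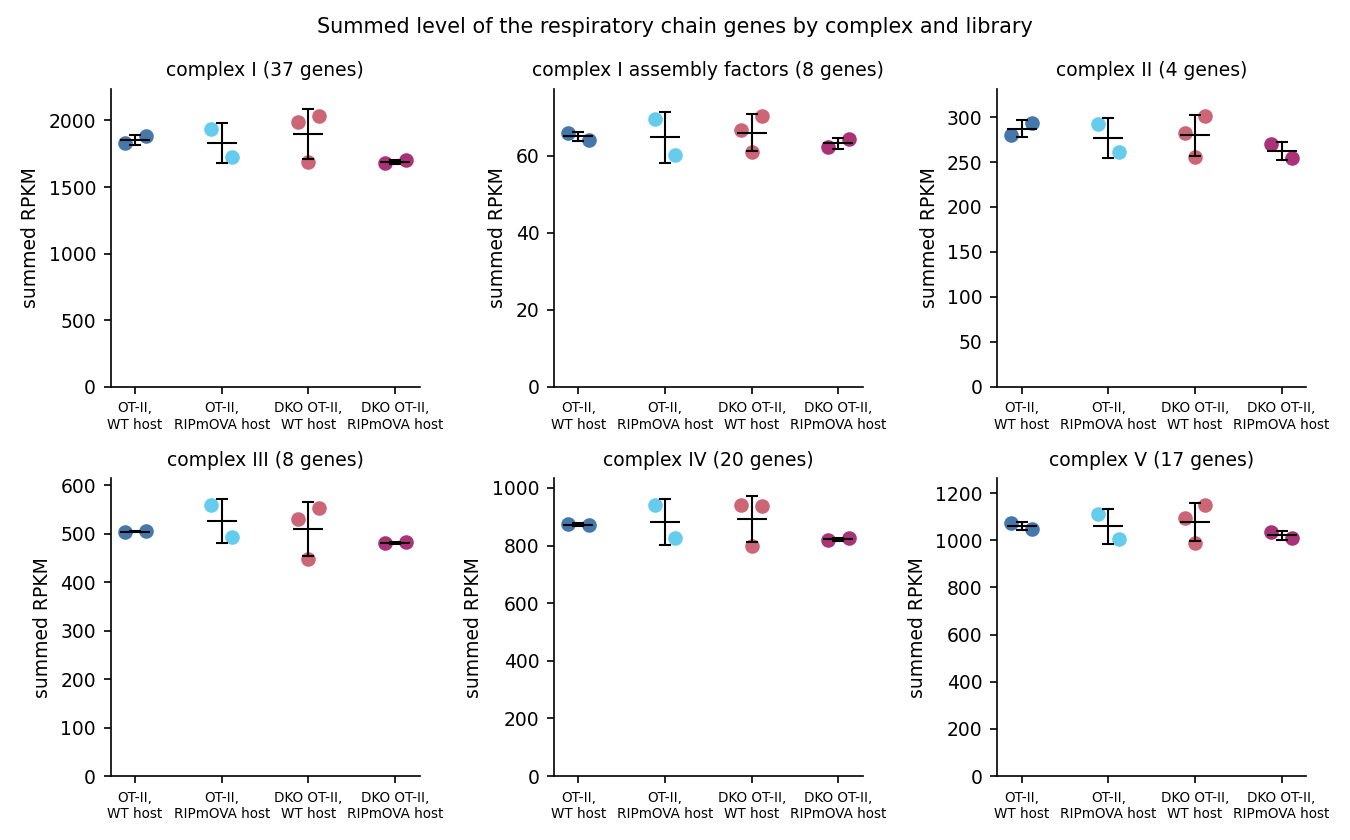
Summed RPKM of the members of each complex (vertical axis, from 0) in each library (points), by genotype label and host (horizontal axis), with the mean and SD of each group in black (n = 2, 2, 3 and 2). The largest ratio of the highest to the lowest library was 1.25, for complex III, and the OT-II and DKO-labelled groups overlapped in WT hosts for each complex.

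Members rose and fell together from library to library, also within groups. Over the 83 members with a mean RPKM of at least 5, the median correlation of a member's log2 value with the mean of the other members was 0.80 over the 9 libraries, against 0.14 for 6542 other genes at that level, and 75 members (90.4%) had a correlation over 0.5, against 19.1% of the other genes. After the group means were taken out, the medians were 0.87 and 0.16. These correlations describe 9 libraries of unequal depth and share each library's scaling, so the members are not independent of one another. Ndufa8 (0.95), Ndufs6 (0.95) and Atp5o (0.95) followed the rest most closely. Among those that followed it loosely were Atp5g2 (0.16), which encodes the c subunit of the ATP synthase rotor, and Ndufs1 (0.21), the iron-sulphur subunit that receives electrons early in complex I. Single libraries moved the set as a whole. In the DKO-labelled WT host library 3, 82 of the 83 members were above their own mean, and in library 2 of the same group 80 were below it. The OT-II libraries of RIPmOVA hosts were split in the same way, with 71 members above the mean in library 1 and 66 below it in library 2. Both DKO-labelled libraries of RIPmOVA hosts were on the low side, with 70 and 73 members below their mean.

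**Figure D2:**
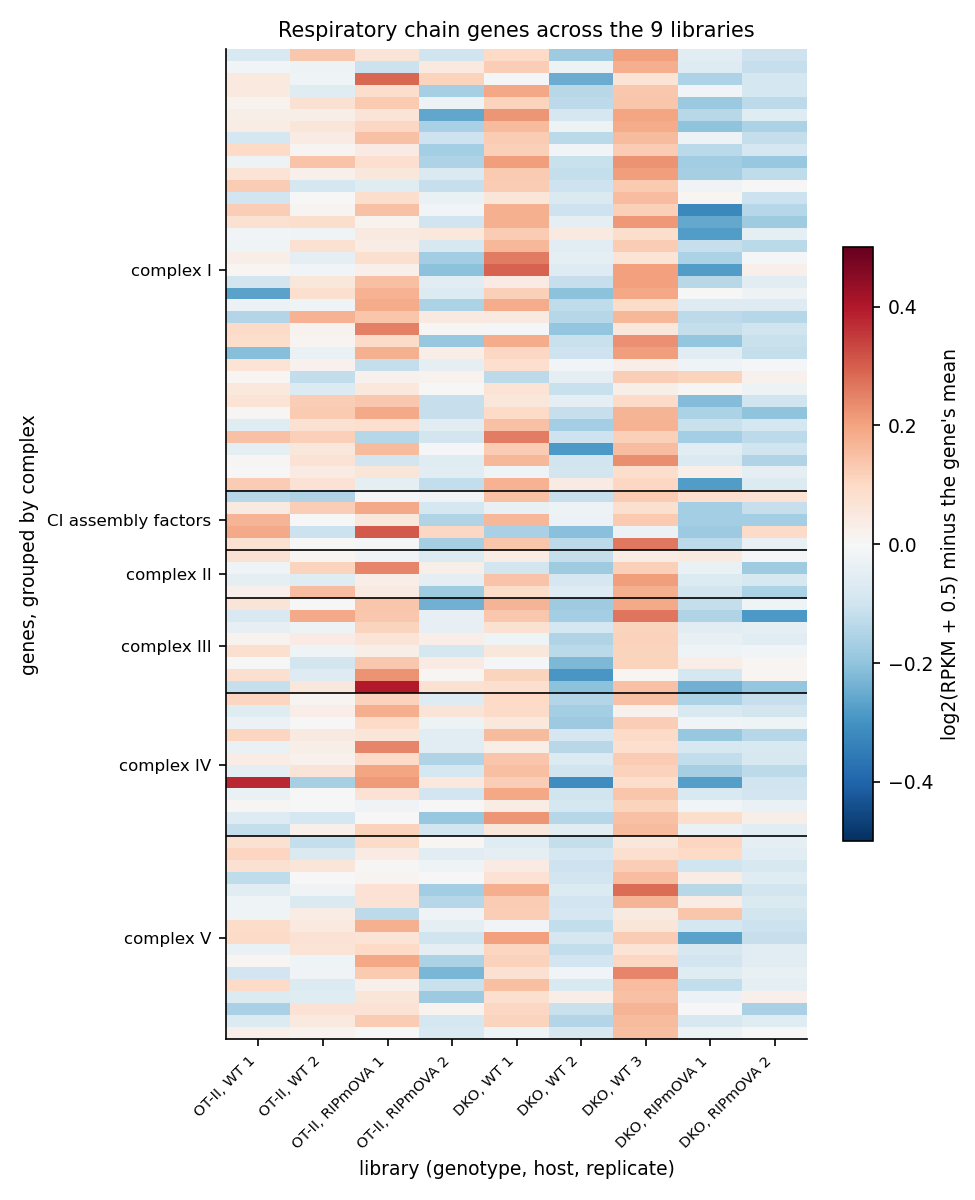
Deviation of each of 83 members (rows, grouped by complex) from its own mean over the 9 libraries (columns), on the log2(RPKM + 0.5) scale, with red above and blue below the mean. Whole columns share a colour, as in the DKO-labelled WT host libraries 2 (80 members below) and 3 (82 above), so the members moved together within a group.

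The promoters of the members were also read for motifs of factors linked to respiratory genes. A link between these motifs and the shared variation was not tested. RefSeq promoter windows of 300 bases (from 250 before the transcription start, GRCm38.p6) were matched for 76 members. The NRF1 motif GCATGCGC, searched on both strands (it reads GCGCATGC on the other), was in 12 of these windows (15.8%), against 6.16% of 9073 windows of tested genes and 3.05% of 27025 windows in all. The YY1 motif AAGATGGCG was in 10.5%, against 3.92% and 1.64%. The ETS motif CCGGAAG was in 25%, against 21.4% and 9.93%, and the CCAAT box in 44.7%, against 43.7% and 41.1%. The GC box CCGCCC was in 46.1%, against 64.9% and 38.2%. No motif searched is contained in another. A match says only that these letters lie in the window. Around 5 of the 12 matches of the NRF1 motif, the stretch of sequence printed here lay wholly upstream of the GENCODE gene. These stretches are shown 5′ to 3′ on the strand of the gene, with the motif in capitals, because they place the same 8 letters before genes of different complexes.
Ndufa6 (complex I, chr15:82354342-82354399, minus strand): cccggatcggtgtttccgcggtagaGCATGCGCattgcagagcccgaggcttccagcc
Ndufa11 (complex I, chr17:56717679-56717736, plus strand): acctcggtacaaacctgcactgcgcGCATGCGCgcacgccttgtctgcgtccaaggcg
Ndufaf4 (assembly factor, chr4:24897947-24898004, plus strand): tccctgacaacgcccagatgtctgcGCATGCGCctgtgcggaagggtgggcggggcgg
Cox6a1 (complex IV, chr5:115349086-115349143, minus strand): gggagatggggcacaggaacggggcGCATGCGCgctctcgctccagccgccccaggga
Atp5l (complex V, chr9:44920950-44920992, minus strand): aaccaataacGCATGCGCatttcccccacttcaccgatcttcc
The motif began 58 bases before the start of Ndufa11, 83 before Ndufa6, 111 before Ndufaf4, 160 before Cox6a1 and 240 before Atp5l. The 12 members with the motif had median log2 changes between -0.16 and 0.01 over the 4 pairwise comparisons below, and the 63 tested members whose window lacked it between -0.12 and 0.04. Nrf1 itself was at 6.46 to 8.84 RPKM.

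The first comparison set OT-II cells of RIPmOVA hosts against those of WT hosts, which differ in the self-antigen and, as labelled, in strain. No member passed the thresholds. With limma and Benjamini-Hochberg adjustment over 11569 genes, 0 of 91 members were called (adjusted p up to 0.05 and at least a 2-fold change), where 1.23% of all genes were. None passed the adjusted p alone, where 1.89% of all genes did, and 0 members had an unadjusted p under 0.05, where 14.3% of genes did. Of the members, 45 were above 0 and 46 below, against 53.4% of all genes below 0. Their median log2 change was -0.001, against -0.02 for all genes. It was -0.09 without OT-II RIPmOVA library 1, 0.08 without library 2 and -0.06 with the sensory receptor reads of each library as a covariate, so its direction depended on these choices. Complex I had a median of -0.03 and complex IV of 0.05. The highest changes were those of Cox6b2 (0.55), Ndufaf2 (0.48) and Cox7a1 (0.33), and the lowest those of Cox8c (-0.48), Ndufs7 (-0.25) and Ndufaf6 (-0.20). Ndufaf2, an assembly factor for complex I, was at 2.55 and 3.59 RPKM in WT hosts and 5.15 and 3.79 in RIPmOVA hosts. The groups did not overlap, and the change had an unadjusted p of 0.051 and an adjusted p of 0.355. With 2 libraries against 2, random values leave the groups without overlap with a probability of 0.333. The genes named here and below were also picked for their extreme changes, so a lack of overlap adds little. Ndufs7, the core subunit that carries the last iron-sulphur cluster of complex I, was at 38.6 and 37.9 RPKM in WT hosts and 31.6 and 32.7 in RIPmOVA hosts, also without overlap (SE of the log2 change 0.12, adjusted p = 0.38).

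DKO-labelled cells were compared between hosts in the same way. Here most members lay lower in RIPmOVA hosts, by small amounts that did not pass the test. None of the 91 members was called, against 1.68% of all genes, and none passed the adjusted p of 0.05 alone, against 3.35%. At an unadjusted p under 0.05 there were 11 members, all lower (12.1%), against 17.6% of all genes. The median log2 change was -0.12, against 0.03 for all genes, and 75 of 91 members were below 0 (82.4%), against 45.6% of all genes. The size of this shift depended on the processing. With the sensory receptor covariate the members' median was -0.05 against 0.004 for all genes, and with quantile normalization it was -0.08 against -0.02. Within complex I, 36 of 37 members were below 0, with a median of -0.18. Within complex V, 15 of 17 were below 0, with a median of -0.09. Because the members move together between libraries, these counts are not counts of independent genes. Ndufb11, an accessory subunit of the membrane arm of complex I, had the lowest change, at -0.33 ± 0.09 (SE), with an adjusted p of 0.10. It was at 142, 122 and 146 RPKM in WT hosts and 105 and 111 in RIPmOVA hosts, without overlap. Without DKO-labelled WT host library 2 its change was -0.41 with an adjusted p of 0.034, and the members' median was -0.21. Without library 1 of that group its change was -0.30 and the median -0.08, and without library 3 they were -0.28 and -0.06. Ndufb10 followed at -0.30 and Uqcr11, a small subunit of complex III, at -0.30. Uqcr11 was at 60.9, 49.2 and 66.9 RPKM in WT hosts and 49.8 and 45.2 in RIPmOVA hosts, so the groups overlapped. The catalytic flavoprotein of complex II, Sdha, changed by 0.03 ± 0.08 (SE), and Atp5a1, the alpha subunit of the ATP synthase, by 0.07 ± 0.09. The highest changes, of Cox7b2 (1.02), Cox8c (0.80) and Cox4i2 (0.57), belonged to isoforms near the detection limit.

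**Figure D3:**
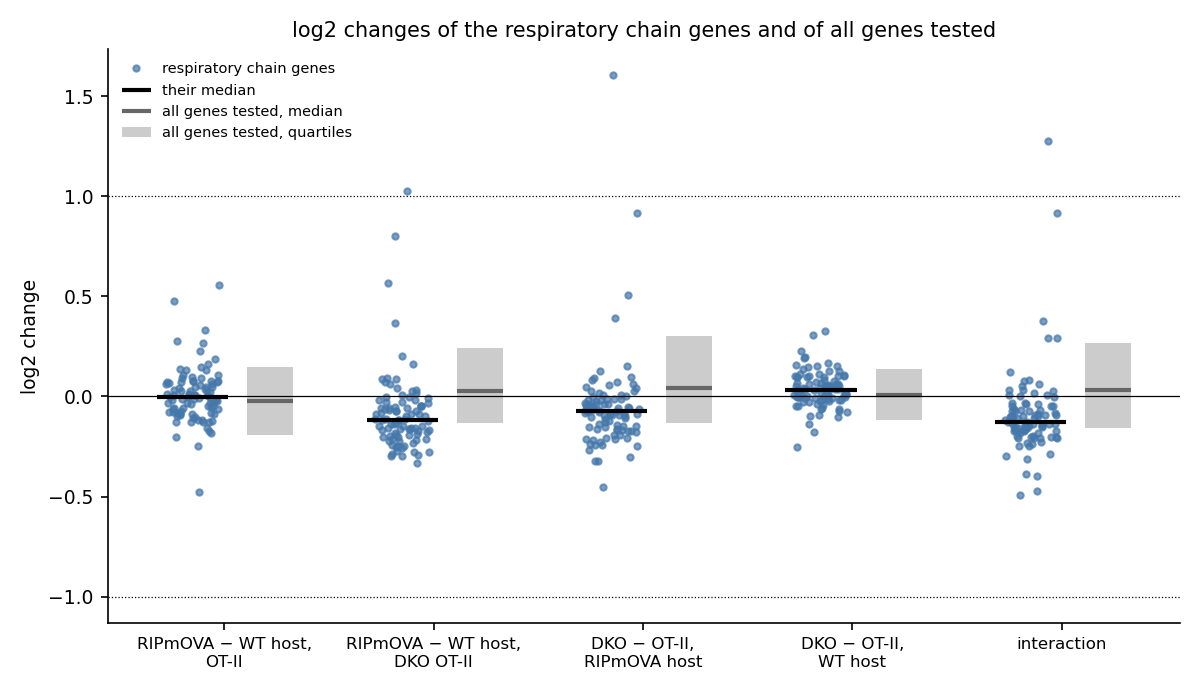
Fitted log2 change (vertical axis) of the 91 tested members (points, with their median as a black line) in the 5 comparisons, beside the quartiles (grey box) and median (grey line) of 11569 genes, with dotted lines at -1 and 1. The members' median was -0.12 for the host comparison in DKO-labelled cells and -0.07 between DKO-labelled and OT-II cells of RIPmOVA hosts (-0.05 and 0.02 with sensory receptor reads as a covariate), and the few points over 0.5 were mostly low isoforms.

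DKO-labelled and OT-II cells were then compared within RIPmOVA hosts, where the study follows cells that escape deletion. Most members lay slightly lower in DKO-labelled cells, though not with the covariate given below. None of 91 members was called, against 1.07% of all genes, and none passed the adjusted p alone, against 2.21%. Unadjusted p was under 0.05 for 5 members (5.49%), against 21.4% of all genes. The median log2 change was -0.07, against 0.04 for all genes. Of the members, 71 were below 0 (78.0%), against 43.6% of all genes. With the sensory receptor reads as a covariate the median was 0.02, so its direction depended on that choice. It was -0.02 without OT-II RIPmOVA library 1 and -0.17 without library 2. Uqcrq, a small subunit of complex III, had the lowest change, -0.45 ± 0.14 (SE), with an adjusted p of 0.13. It was at 53.9 and 43.0 RPKM in OT-II libraries and 34.5 and 35.6 in DKO-labelled libraries, which did not overlap. In WT hosts it was at 37.6 and 42.4 RPKM in OT-II libraries and 43.2, 35.3 and 45.2 in DKO-labelled libraries, so the first OT-II RIPmOVA library, at 53.9, stood above the other 8. Cox7a2l, known for its part in respiratory supercomplexes, changed by -0.32 ± 0.19 and Ndufa11, a membrane subunit of complex I, by -0.32 ± 0.12. Ndufaf7, a methyltransferase that assembles complex I, had the lowest adjusted p, 0.098, with a change of 0.51 ± 0.14 (SE). It was at 3.58 and 4.10 RPKM in OT-II libraries and 6.05 and 5.29 in DKO-labelled libraries, without overlap. Its 4 highest libraries, which also include DKO-labelled WT host library 2 at 5.30 RPKM and OT-II WT host library 1 at 4.78, were the 4 with the most sensory receptor reads. With those reads as a covariate the change was 0.40.

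**Figure D4:**
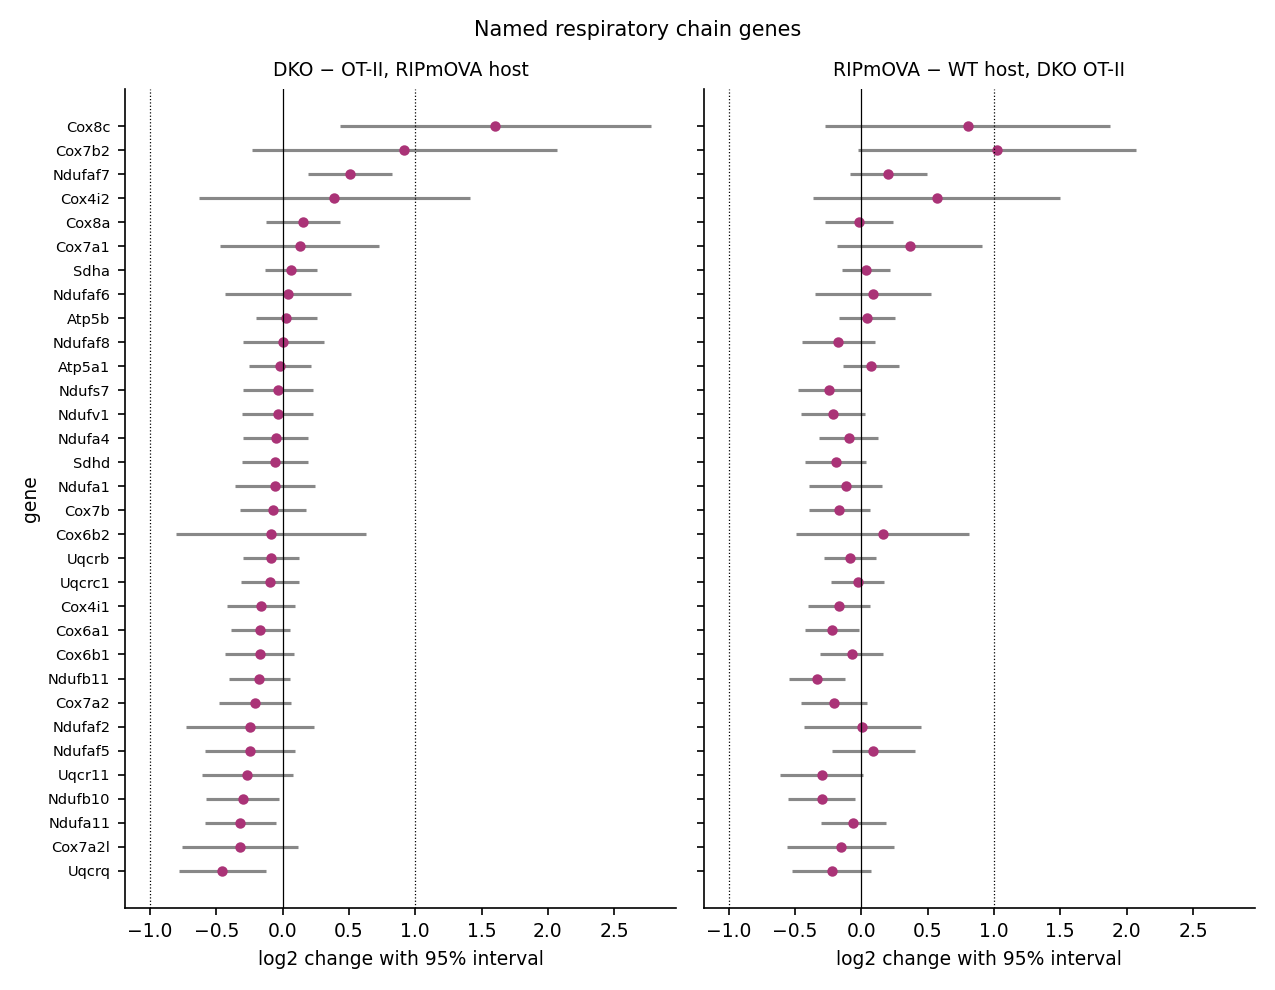
Log2 change with its 95% interval (horizontal axis, dotted lines at -1 and 1) for 32 tested members named by the rule in the methods (vertical axis), between DKO-labelled and OT-II cells of RIPmOVA hosts (left) and between RIPmOVA and WT hosts in DKO-labelled cells (right). Intervals of abundant subunits such as Sdha and Atp5b were narrow and spanned 0, whereas Cox8c and Cox7b2 had the widest.

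In WT hosts, where both genotypes are positively selected, no member differed past the thresholds between genotypes. None of 91 was called, against 0.0605% of all genes, none passed the adjusted p alone, against 0.0692%, and 0 had an unadjusted p under 0.05, against 7.89%. The median log2 change was 0.03, against 0.005 for all genes, with 61 members above 0. It was -0.01 with the chimera as a block and without DKO-labelled WT host library 3. The range was -0.25 (Ndufaf6) to 0.33 (Cox8c). Ndufaf6, an assembly factor for complex I, was at 4.76 and 5.62 RPKM in OT-II libraries and 3.88, 4.61 and 4.34 in DKO-labelled libraries, without overlap. Ndufaf5, another assembly factor, changed by -0.18, Cox7a2l by -0.14, Cox6b2 by 0.31 and Ndufaf2 by 0.23. Without OT-II WT host library 1, at 33.6 RPKM, the change of Cox7a2l was 0.13.

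The interaction, the difference of the DKO-labelled host effect from the OT-II host effect, did not pass the test for any of the 91 members. It was called for 0.0173% of all genes, both with and without the fold threshold (0.0173%), and 2 members had an unadjusted p under 0.05, against 9.32% of all genes. These were Uqcrq at -0.49 ± 0.20 (SE, adjusted p = 0.52) and Ndufc2 at -0.39 ± 0.16 (adjusted p = 0.52), a complex I subunit that was named after its values were seen. The median over the members was -0.13, against 0.03 for all genes, and 74 of 91 members were below 0, against 45.3% of all genes. The median was -0.03 with the sensory receptor covariate, -0.03 without OT-II RIPmOVA library 1, -0.23 without OT-II RIPmOVA library 2 and -0.21 and -0.08 without DKO-labelled WT host libraries 2 and 3. The difference between the host effects of the 2 genotypes was thus not shown for any member.

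A p that misses the threshold does not show that a gene stayed level, so the intervals were counted. The 95% interval of the log2 change lay within -1 and 1, a 2-fold change either way, for 87 members in the host comparison of OT-II cells, and for 88 in the host comparison of DKO-labelled cells and in each of the genotype comparisons. It lay within a 1.5-fold change either way for 83, 85, 79 and 84 members (host comparison in OT-II, host comparison in DKO-labelled, genotypes in RIPmOVA hosts and genotypes in WT hosts), against 51.4%, 55.5%, 49.5% and 60.1% of all genes. These shares of all genes were not matched to the members for level. At a mean RPKM of at least 5, the median SD within groups was 0.116 for 83 members and 0.125 for 6542 other genes. The members whose interval reached past 2-fold in a pairwise comparison were Cox4i2, Cox6b2, Cox7b2 and Cox8c, all low isoforms. The core subunits fixed for naming had intervals within a 1.5-fold change in the RIPmOVA host comparison of genotypes. The interval was -0.30 to 0.23 for Ndufv1, the subunit that oxidises NADH, and -0.14 to 0.26 for Sdha. It was -0.31 to 0.12 for Uqcrc1, -0.42 to 0.09 for Cox4i1 and -0.25 to 0.21 for Atp5a1. In RIPmOVA hosts, Ndufv1 was at 18.3 and 18.7 RPKM for OT-II and at 18.5 and 17.5 for DKO-labelled libraries, and Sdha at 76.6 and 73.8 against 80.1 and 76.9. Between the highest and lowest of the 9 libraries, the 83 members with a mean RPKM of at least 5 differed by a median of 1.28-fold (1.13 to 1.62), and only 3 of these 83 exceeded 1.5-fold.

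Complex IV has subunits with tissue-restricted isoforms, and these thymocytes carried the ubiquitous form at far higher levels. Cox4i1 averaged 88.4 RPKM against 1.09 for Cox4i2, a lung-enriched form. Cox6a1 averaged 147 RPKM, and the heart and muscle form Cox6a2 had 0 or 1 read per library. Cox6b1 averaged 130 RPKM against 0.997 for the testis form Cox6b2. Cox7a2 averaged 79.1 RPKM and Cox7a2l 26.1, against 1.52 for the muscle form Cox7a1. Cox7b averaged 67.0 RPKM against 1.28 for Cox7b2. Cox8a averaged 101 RPKM against 0.233 for Cox8b and 0.815 for the testis form Cox8c. Ndufa4 averaged 51.5 RPKM, and Ndufa4l2, known as a hypoxia-induced paralogue, had 0 to 2 reads per library. A count of 3 reads, the level a count of 0 allows, corresponds, at a length of 1 kb, to RPKM values from 0.12 to 0.193, and these limits cover counting error only.

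The low isoforms differed most between libraries, at few reads. Cox7b2 was at 2.02 and 0.240 RPKM in OT-II libraries of WT hosts and 1.12 and 0.838 in those of RIPmOVA hosts. In DKO-labelled libraries it was at 0.756, 1.37 and 0.589 RPKM in WT hosts and 2.34 and 2.22 in RIPmOVA hosts. Its 4 highest libraries were the 4 with the most sensory receptor reads. Cox8c was at 0.703 and 0.284 RPKM, then 0.133 and 0.271 in OT-II libraries of WT and RIPmOVA hosts, and at 0.269, 1.62 and 0.609, then 1.07 and 2.38 in the corresponding DKO-labelled libraries. The same 4 libraries led. Cox8c reached an RPKM of 1 only in DKO-labelled libraries, so it passed the filter only through the genotype where it was high. Its test between genotypes therefore adds no support for a difference. Between genotypes in RIPmOVA hosts the fitted log2 change of Cox8c was 1.60 ± 0.52 (SE, adjusted p = 0.13). It rests on 29 reads in the DKO-labelled and 4 in the OT-II libraries, a ratio of 7.78 per read sequenced with a counting interval of 2.73 to 30.5. Cox8b had 3 and 6 reads in the DKO-labelled and 0 in both OT-II libraries of RIPmOVA hosts. Per read sequenced this is 3.22-fold against a floor of 3 reads over the OT-II group. The lower end of the counting interval of the ratio was 2.12. It did not pass the filter on low values. Markers of the tissues that use these isoforms were low, with 4 muscle or heart genes summing to 0.801 to 2.62 RPKM and 3 testis germ cell genes to 0.234 to 1.21 RPKM. With sensory receptor reads as a covariate, the change of Cox7b2 between genotypes in RIPmOVA hosts was -0.34 in place of 0.92. By contrast Cox6b2 and Cox7a1 did not have their highest values in those 4 libraries.

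**Figure D5:**
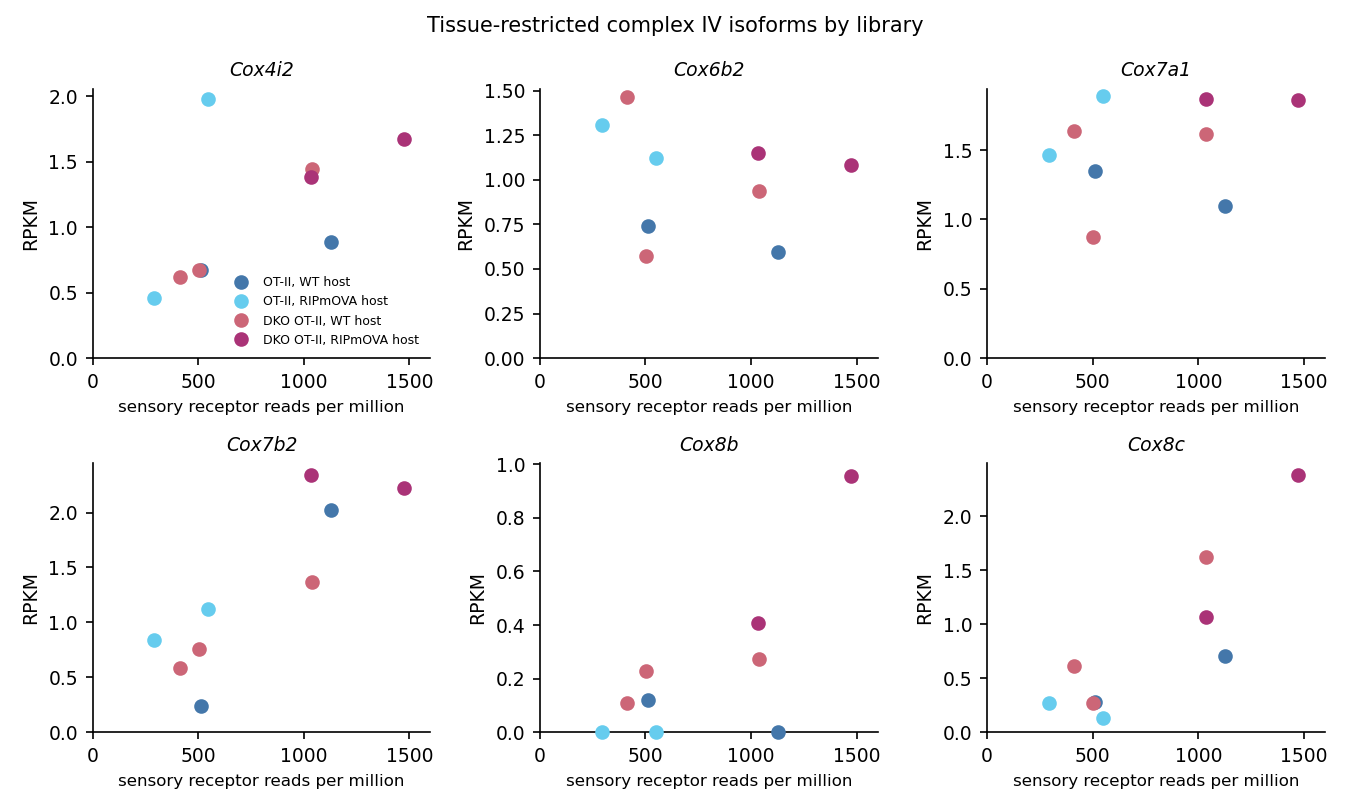
RPKM of 6 low complex IV isoforms (vertical axes, from 0) against the summed RPM of sensory receptor genes in the same library (horizontal axis), with 1 point a library coloured by group. The 4 libraries with the most sensory receptor reads (1035 to 1474 RPM) held the 4 highest values of Cox7b2 and Cox8c but not of Cox6b2 or Cox7a1.

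Other mitochondrial genes were read from the same fit. Of 44 tested assembly factors outside the rule, 3 passed the adjusted p of 0.05 between genotypes in RIPmOVA hosts and each was higher in DKO-labelled libraries, below the 2-fold threshold, where 2.21% of all genes passed. They are named here after their values were seen. Taco1, a translational activator of the mitochondrially encoded COX1 subunit, was at 5.92 and 5.74 RPKM in the OT-II libraries and at 9.36 and 9.90 in the DKO-labelled libraries (log2 change 0.68 ± 0.12, SE, adjusted p = 0.023). It was also at 7.95, 9.32 and 7.99 RPKM in DKO-labelled against 5.87 and 6.45 in OT-II libraries of WT hosts. Tmem126a was at 10.4 and 8.92 against 15.7 and 15.6 RPKM (0.67 ± 0.14, adjusted p = 0.044), and Acad9 at 5.41 and 5.78 against 8.08 and 8.47 RPKM (0.53 ± 0.11, adjusted p = 0.043). Both are needed to assemble complex I. With the chimera as a block, 1 of the 3 passed (Taco1, adjusted p = 0.0495, against 0.0501 for Tmem126a). With the sensory receptor covariate none did, although the changes were 0.54 to 0.78. That covariate took the genes that passed, of all 11569, from 256 to 18 in this comparison. With median-of-ratios rescaling none of the 3 passed either, with changes of 0.46 for Taco1, 0.45 for Tmem126a and 0.31 for Acad9 (adjusted p of 0.121, 0.195 and 0.248). Leaving out either library of the OT-II or of the DKO-labelled RIPmOVA group left none of the 3 past the threshold, and leaving out any 1 DKO-labelled WT host library left only Taco1 past it. In the other comparisons 0 of the 44 passed, with 5 and 11 at an unadjusted p under 0.05 in the host comparisons of OT-II and DKO-labelled cells, 3 between genotypes in WT hosts and 3 for the interaction. The shares of all genes at that p were 14.3%, 17.6%, 7.89% and 9.32%.

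No gene passed the adjusted p in any comparison among 22 electron carrier and entry point genes, 13 genes of the TCA cycle, 26 mitochondrial import genes, 21 biogenesis regulators and 78 mitochondrial ribosomal proteins. At an unadjusted p under 0.05 these lists held 3, 0, 3, 3 and 2 genes in the host comparison of OT-II cells and 1, 1, 2, 2 and 12 in that of DKO-labelled cells. They held 2, 0, 2, 3 and 5 between genotypes in RIPmOVA hosts and 1, 0, 0, 3 and 1 in WT hosts. Over all genes the shares at that p were 14.3%, 17.6%, 21.4% and 7.89% in these 4 comparisons. The mitochondrial ribosomal proteins had a median log2 change of -0.10 in the host comparison of DKO-labelled cells, with 61 of 78 below 0, beside -0.12 for the respiratory chain members. The TCA cycle had a median of 0.06 there, with 5 of 13 below 0. The electron carriers had a median of 0.12 between genotypes in RIPmOVA hosts, with 8 of 22 below 0. Of all genes, 45.6% were below 0 in that host comparison and 43.6% in this genotype comparison. None of 26 symbols searched for the mitochondrially encoded subunits, in 2 naming styles, was in the table, so the nuclear and mitochondrial parts of the complexes could not be compared.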

How the data were processed

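Expression was measured by RNA sequencing in 9 libraries of sorted thymocytes. Per the study's methods, the authors made cDNA with SMART-seq v4 and libraries with Nextera XT, aligned reads to mm10 with STAR, removed duplicates and summed reads over exons of Entrez genes (GENCODE vM17). The deposited values are RPKM, computed by the authors from exon reads, with rounding to 3 decimals. Library depth was recovered from the RPKM steps of short genes (within 0.1 of a whole read for 100% of the low values checked). Genes that reached an RPKM of 1 in 2 or more libraries (11569) were tested on log2(RPKM + 0.5) with limma 3.58.1 in R 4.3.3 (group means over 9 libraries, intensity trend, two-sided moderated test, Benjamini-Hochberg adjustment over all genes). Fold changes are on that scale and understate changes of low genes. The fit was tested on simulated data. Calls needed an adjusted p of 0.05 or less and an absolute log2 change of 1, as in the study. The members and lists were chosen with earlier results of these data known, so no p is given over the members.

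Named genes were 1 core subunit of each complex (Ndufv1, Sdha, Uqcrc1, Cox4i1, Atp5a1), the highest member of each complex by mean RPKM, the paired isoforms of complex IV, members past the adjusted p, and the 3 highest and 3 lowest changes of each pairwise comparison (35 genes in all). Libraries with the same number within a host type come from the same chimera per the labels. Over all genes tested, their deviations from the group means correlated by 0.006 and -0.24 in WT hosts and -0.08 in RIPmOVA hosts. Over the members these values were -0.20, -0.53 and -0.09. With 2 libraries in each RIPmOVA group the 2 deviations mirror each other, so the 2 chimeras give 1 value. Separate chimeras were the replicates of a group. The 2 comparisons of genotype use the libraries that the host comparisons also use, so the 4 comparisons share samples. Overlaps, coordinates and principal transcripts come from GENCODE M21 (GRCm38, which mm10 names), and promoters from RefSeq. Alternatives changed the pseudocount, filter, scaling, spread estimate, trend, chimera block, a sensory receptor covariate, and left out each library in turn. The correlation of 1 member with the others is not reported here.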

Additional observations from a re-analysis of the deposited data

How the results depend on the processing

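No alternative gave more than 1 call among the members. With no filter on low values, 1 member was called between genotypes in RIPmOVA hosts, Cox8b (9 reads against 0), whose fitted change depends on the pseudocount. Without DKO-labelled WT host library 2, 1 member (Ndufb11) passed the adjusted p alone in the host comparison of DKO-labelled cells. The other counts were 0 under each alternative run, the replicate block by chimera included (0 members in each comparison).

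The median log2 change of the members moved by more than 0.086, the SD between replicate libraries, with 1 rescaling, with the covariate and without OT-II RIPmOVA library 1, OT-II RIPmOVA library 2 or DKO-labelled WT host library 2. Median-of-ratios rescaling gave -0.285 and -0.304 in the host comparison of DKO-labelled cells and between genotypes in RIPmOVA hosts, and -0.362 for the interaction, but moved the median of all genes to -0.14, -0.18 and -0.20, so the difference between the members and all genes was -0.15, -0.12 and -0.17, beside -0.14, -0.12 and -0.16 as reported. That difference was smaller with quantile normalization (-0.0551, -0.042 and -0.106) and with the covariate (-0.0555, 0.00152 and -0.0276). The sensory receptor covariate gave 0.0184 between genotypes in RIPmOVA hosts and -0.0294 for the interaction, and the cause was not tested. Leaving out 1 library gave medians of -0.0903 to 0.0842 (host comparison, OT-II), -0.205 to -0.0605 (host comparison, DKO-labelled), -0.169 to -0.0151 (genotypes, RIPmOVA hosts), -0.0138 to 0.104 (genotypes, WT hosts) and -0.228 to -0.0264 (interaction).

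Of 444 values of single named genes, 7 turned direction. These were Cox8c (0.0859) in the host comparison of OT-II cells, Cox4i2 (-0.117) in that of DKO-labelled cells and Cox7b2 (-0.338) between genotypes in RIPmOVA hosts, each with the covariate, Ndufaf6 in the host comparison of OT-II cells (range -0.543 to 0.139 over left-out libraries, above 0 without OT-II RIPmOVA library 2), and Cox7a2l and Cox8c between genotypes in WT hosts (Cox7a2l, range -0.408 to 0.132, was above 0 without OT-II WT host library 1 and, at 0.000301, without DKO-labelled WT host library 2, and Cox8c, range -0.0726 to 0.66, was below 0 without the latter). Of the genes in related lists, 3 passed the adjusted p between genotypes in RIPmOVA hosts as reported, 2 with median-of-ratios rescaling (Mrps6 and Sdhaf1, neither among the 3), 5 with quantile normalization, 1 with no intensity trend, 1 with the replicate block by chimera, 0 with the covariate and 0 to 5 when 1 library was left out. In the host comparison of DKO-labelled cells 3 passed with a filter at an RPKM of 5, and 0 to 7 when 1 library was left out. The range was 0 to 2 in the host comparison of OT-II cells and between genotypes in WT hosts. At the depth of these libraries the low isoforms rest on few reads.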
